A study of Xenopus laevis with 4 samples.

Results

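The genes described here control the cell cycle and the meiotic maturation of the frog oocyte: cyclins, cyclin-dependent kinases (CDKs) and their regulators, the anaphase-promoting complex, the spindle checkpoint, Aurora and Polo kinases, and the maturation genes mos, wee1, wee2, pkmyt1, fbxo43 and btg4. They were chosen by gene name alone, from probe sets with a single symbol, and every name that begins with one of the chosen stems was taken. The choice gave 87 probe sets for 71 gene symbols, out of 9304 probe sets for 7531 symbols. RNA was measured in Xenopus laevis on Affymetrix arrays, with 2 arrays of intact stage VI oocytes, the full-grown stage, and 2 arrays of vegetal cortices cut by hand from such oocytes. Each replicate number stands for a different donor female, and the intact control oocytes came from the female that gave the cortices. All oocytes were freed with collagenase, the cortices were frozen in batches, and the labels used here give no strain, age or hormone treatment. The cortex is a part of the oocyte it is compared with, so the comparison asks which RNAs make up a larger or smaller share of the RNA near the vegetal membrane than of the whole cell.

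A stage VI oocyte is arrested at the first meiotic prophase. Progesterone releases it: newly made Mos and B-type cyclins, and removal of inhibitory phosphate from Cdk1 by Cdc25, raise Cdk1-cyclin B activity and drive meiosis to the second metaphase, where Emi2 (encoded by fbxo43) holds the anaphase-promoting complex (APC/C) in check until fertilization. Many of these messages are stored without translation in the full-grown oocyte and used during maturation and the rapid cleavages that follow. Xenopus laevis carries 2 subgenomes, and a symbol ending in .L or .S names the copy of a gene on the one with longer or shorter chromosomes.

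Values are MAS5 signals, scaled so that every array has the same trimmed mean. A log2 change is the vegetal cortex minus the whole oocyte on the scale log2(signal + 19.11), its error is the SE of limma's moderated fit, and a call is a two-sided Benjamini-Hochberg adjusted p under 0.05 over 9295 tested probe sets. Median signals ranged from 521.0 to 601.2 over the 4 arrays. As a check of the dissection, 19 of 20 tested probe sets of RNAs known from the vegetal cortex were called higher, at log2 changes of 1.62 to 4.65. That list was written with earlier results of these data known, so it is not an independent check. All 10 probe sets of oocyte marker genes (10 symbols, with both copies of sox3 and ybx2) reached the test, and none was called. Their median log2 change was 0.37, beside -0.2 for all tested probe sets, and 2 were below 0. The highest was zp2.L at 1.48 (adjusted p = 0.0892 by limma). Of 19 probe sets for follicle and stromal cell markers 5 were tested, 4 of fn1.S and 1 of vim.L, with log2 changes of -0.01 to 0.16; the summed signal of that list was 28210 and 26480 in whole oocytes and 25000 and 35230 in cortices. Of 10 blood marker probe sets 1 was tested, hba-l5.L, and its signal was highest in the cortices of female 2 (1724, against 565 to 748 on the other arrays). The part of such cells in the results was not tested, and in samples like these fewer cells of a type and less RNA per cell cannot be told apart. With 2 arrays a group, p-values rest on the spread between arrays of 2 females, moderated over all tested probe sets. Female, dissection and array cannot be told apart in that spread.

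No cell cycle or maturation gene was called enriched in the vegetal cortex, and none was called lower. Of the 87 probe sets 77, for 64 symbols, were bright enough to test. The count was 0 of 77 higher, where 3.31% of all tested probe sets were called higher, and 0 of 77 lower, where 0% of all tested probe sets were called lower. At an unadjusted p under 0.05, 0 members were higher and 4 were lower: both copies of aurka, cdk7.L and cdk10.L. The background at that level was 8.02% higher and 4.62% lower. With the female as a block 8 members were lower at that level (9.58% of all), mad2l1.S, cdc27.S and 1 probe set each of ccnb3.L and ccne1.L being added, and with quantile normalization 10 were (4.25% of all). The members' median log2 change was -0.23 beside -0.20 for all tested probe sets, and their range was -1.62 to 0.57 beside -2.96 to 5.47. No setting tried gave a member called higher, while 0.871% to 7.5% of all tested probe sets were called higher under them. The members' median was -0.42 with quantile normalization and -0.10 with arrays centred on the median, where all tested probe sets had -0.16 and -0.07.

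The intervals say how large a change could have been missed. The 95% interval of the log2 change excluded a 2-fold increase for 63 of 77 members (81.8%), beside 66.8% of all tested probe sets. It excluded a 2-fold decrease for 32 members (41.6%), beside 39.6% of all. For 23 members (29.9%) the interval lay within a 2-fold change either way, beside 12.9% of all, but with quantile normalization this held for 9 members (11.7%). The share of all tested probe sets within a 2-fold change was then 12.9%. A 2-fold decrease was then excluded for 18 members (23.4%, beside 42.6% of all), and a 2-fold increase for 63 (81.8%, beside 63.6%). With the female as a block 33 intervals (42.9%) lay within a 2-fold change, beside 27.5% of all tested probe sets. A 2-fold increase was then excluded for 68 members (88.3%, beside 74.5%) and a decrease for 42 (54.5%, beside 51.4%). Without whole oocyte replicate 1, or without replicate 2, each of these counts was smaller than in the main fit. That held for members and for all tested probe sets. The members are bright, with a median signal of 2836 over all 87 beside 620 over all 15491 non-control probe sets, both counted with the untested ones. Bright probe sets have narrower intervals, and how far brightness bears on the shares above was not tested. Over 1 probe set per symbol the counts of calls were also 0 and 0 of 64.

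**Figure D1:**
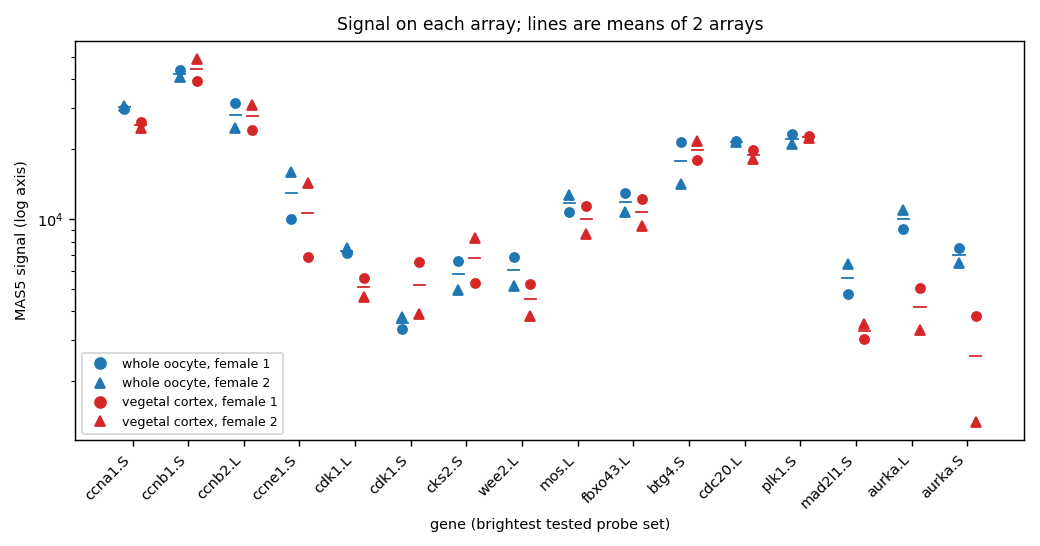
MAS5 signal (log axis) of 16 genes on each of the 4 arrays, with the brightest tested probe set of each gene; circles are female 1, triangles female 2, blue whole oocyte, red vegetal cortex, and short lines are group means (n = 2). Signals of ccnb1.S, ccnb2.L, ccne1.S, cks2.S, wee2.L, mos.L, fbxo43.L, btg4.S and plk1.S overlap between the groups. Both cortex arrays lie below both whole oocyte arrays for aurka.L, aurka.S, ccna1.S, cdk1.L, cdc20.L and mad2l1.S, and above them for cdk1.S.

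Cyclins B1 and B2, which activate Cdk1 in meiosis and mitosis, had log2 changes between -0.07 and 0.06. ccnb1.S read 43764 and 40909 in whole oocytes (female 1, then female 2, as in all later pairs of values) and 39277 and 49048 in cortices, a log2 change of 0.05 ± 0.23 (95% interval -0.49 to 0.59, adjusted p = 0.94 by limma). The groups overlapped, with cortices lower in female 1 and higher in female 2. ccnb2.L read 31735 and 24688 against 24315 and 31185, and ccnb2.S read 26399 and 27747 against 23429 and 30031. Their log2 changes were -0.02 ± 0.27 and -0.03 ± 0.26, again with opposite directions in the 2 females. The tandem copies named ccnb1.2.L and ccnb1.2.S were at -0.07 and 0.06. These 5 B-type cyclin values depend on the scaling: with quantile normalization ccnb1.S was at -0.62 and ccnb1.2.S at -0.57, still without a call.

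ccna1, the embryonic cyclin A of the frog, had a value below 0 for one copy and above 0 for the other, without a call for either; with quantile normalization ccna1.L was at -0.46 and the opposite signs were gone. ccna1.S read 29786 and 30799 in whole oocytes and 26233 and 24632 in cortices, a log2 change of -0.25 ± 0.24 with both cortex arrays below both whole oocyte arrays. ccna1.L had a log2 change of 0.17 ± 0.31, and its change was -0.19 in female 1 and 0.52 in female 2. Both copies of ccna2 lay between -0.19 and 0.01. Cyclin B3, a cyclin of the germ line and early embryo in several animals, had the lower values among the B types. Its 3 probe sets (ccnb3.S and 2 of ccnb3.L) were at -0.50, -0.54 and -0.71, below 0 in both females, with adjusted p-values of 0.600, 0.587 and 0.467.

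Cyclin E, the partner of Cdk2 that also times early cleavage, depended on the female and on the probe set. The brightest probe set of ccne1.L read 4449 and 3371 in whole oocytes, and 3764 and 1349 in cortices. A second probe set of that gene read 3102 and 2199, and 2398 and 743.4. In both, the low value was that of the cortices of female 2, and the log2 changes of -0.77 ± 0.50 and -0.95 ± 0.55 were not called (adjusted p = 0.542 and 0.503). The remaining, dimmer probe set of ccne1.L went the other way in that female (log2 change 0.19 ± 0.47, and 0.65 in female 2). Without vegetal cortex replicate 1, which leaves 1 cortex array, the log2 changes of the brighter probe sets were -1.51 and -1.79. ccne1.S read 9974 and 15922 against 6873 and 14304, so that the females differed more than the groups. D-type cyclins, which drive the G1 phase of somatic cells, were dim: ccnd2 had the highest log2 change of the 77 tested members, 0.57 ± 0.45, on signals of only 286.9 and 297.7 in whole oocytes and 376.7 and 517.1 in cortices (adjusted p = 0.617), and ccnd2.L was at 0.15 ± 0.57. ccnd1.L and ccnd1.S, like the E-type ccne2.L, had signals between 62.9 and 197 and were not tested. Of the 18 tested cyclin probe sets 11 had a log2 change below 0, and their median was -0.05.

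Among the catalytic subunits, the copies of cdk1, the kinase of maturation-promoting factor, pointed in opposite directions. cdk1.L read 7106 and 7535 in whole oocytes and 5554 and 4614 in cortices (log2 change -0.53 ± 0.31, adjusted p = 0.51). cdk1.S read 3349 and 3768 in whole oocytes and 6521 and 3899 in cortices (0.50 ± 0.37, adjusted p = 0.582). The cortex arrays lay below the whole oocyte arrays for the .L copy and above them for the .S copy, in both females, and neither was called. cdk2.S, the partner of cyclin E, read 4098 and 6918 against 2793 and 5780, a log2 change of -0.40 ± 0.45 with overlapping groups. cdk4.S, a partner of D-type cyclins, was at 0.28 ± 0.39.

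The lowest values among catalytic subunits were those of cdk7.L and cdk10.L. cdk7.L, which encodes the CDK-activating kinase of transcription factor TFIIH, read 982.8 and 1058 in whole oocytes and 667.4 and 286.5 in cortices (log2 change -1.18 ± 0.49, unadjusted p = 0.0399, adjusted p = 0.375, limma). Both cortex arrays lay below both whole oocyte arrays. A second probe set of cdk7.L was dim, at 14.3 and 58.6 in whole oocytes and 131.8 and 135.2 in cortices, and was not tested. Its direction was opposite, so cdk7.L has no settled direction here. Without vegetal cortex replicate 1, which leaves 1 cortex array, the log2 change of the brighter probe set was -1.77. cdk10.L read 1675 and 1864 against 893.5 and 1076, with nearly the same change in the 2 females (-0.89 and -0.78; unadjusted p = 0.0491, adjusted p = 0.393). cdk9.L, the kinase of the elongation factor P-TEFb, was at -0.40 ± 0.43, and 3 probe sets of cdk11b.S lay between -0.54 and -0.02. Over the 13 tested probe sets of catalytic subunits the median was -0.36, with 11 below 0. The untested ones were cdk19.L, cdk11b.L, 1 probe set of cdk16.L and the dim one of cdk7.L. The small Cks subunits, which bind CDKs, were at -0.33 ± 0.32 for cks2.L, 0.22 ± 0.36 for cks2.S and -0.07 ± 0.56 for cks1b.S.

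Of the 7 tested probe sets for kinases and phosphatases that set the inhibitory phosphorylation of Cdk1, 5 had a log2 change below 0 and none was called. Their median was -0.40. wee2, the Wee1-type kinase of frog oocytes and early embryos, read 6886 and 5165 against 5239 and 3813 for the .L copy, a log2 change of -0.41 ± 0.34. The .S copy read 8000 and 5038 against 5782 and 7244, a change of 0.03 ± 0.35. Cortices were lower than whole oocytes in both females for wee2.L and in female 1 for wee2.S, and the groups overlapped for both copies. The tested probe set of wee1.S was at -0.59 ± 0.42, with signals of 654.0 and 599.1 against 465.0 and 361.1, while wee1.L (140.6 to 335.7) and the other probe set of wee1.S (6.6 to 83.0) were too dim to test. pkmyt1.S, the membrane-bound kinase Myt1 that inhibits Cdk1, was among the few members above 0 in both females, at 0.15 ± 0.44 with overlapping arrays.

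The bright probe set of the phosphatase gene cdc25a.L had the widest disagreement between females in this class. A dimmer tested probe set of that gene was below 0 in both females (log2 change -0.44 ± 0.52, with -0.54 in female 1 and -0.33 in female 2). The bright one read 14497 and 19619 in whole oocytes and 8432 and 24612 in cortices. The cortex value was the lowest of the 4 in female 1 and the highest in female 2, and the log2 change was -0.23 ± 0.47. Without vegetal cortex replicate 2 it was called lower (-0.998, adjusted p = 0.0473, where 0.409% of all tested probe sets were), and without vegetal cortex replicate 1 it was at 0.54. cdc25c.L, the phosphatase that acts at entry into M phase, read 1791 and 1582 against 1299 and 1241 (-0.40 ± 0.35), with both cortex arrays below.

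The messages best known from maturation itself, mos, fbxo43 and btg4, had log2 changes between -0.23 and 0.20 and no call. mos.L, the kinase that starts the MAP kinase cascade of maturation, read 10696 and 12651 in whole oocytes and 11400 and 8621 in cortices (log2 change -0.23 ± 0.30). A dimmer probe set of mos.L was at 0.20 ± 0.40, so the sign depended on the probe set and the groups overlapped in both. fbxo43.L read 13016 and 10754 against 12170 and 9372 (-0.15 ± 0.30, 95% interval -0.84 to 0.54). btg4, an adaptor of the deadenylase that removes maternal messages in mouse oocytes, read 10837 and 10584 against 7511 and 11743 for its .L copy and 21414 and 14111 against 17936 and 21672 for its .S copy. For 4 of the 5 probe sets of this class the cortex was lower in female 1.

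Of the 13 tested probe sets of the APC/C, the ubiquitin ligase that destroys cyclins, 9 (69.2%) were below 0, beside 65.7% of all tested probe sets, and none was called. cdc20.L, the activator of the APC/C in M phase, read 21636 and 21415 in whole oocytes and 19807 and 18086 in cortices (-0.19 ± 0.25). cdc20.S read 13526 and 16426 against 13725 and 18053 (0.08 ± 0.29), so the cortex was above the whole oocyte in each female. The lowest values were those of cdc27 and cdc23, subunits of the complex. cdc27.S read 1187 and 899.4 against 807.4 and 423.7 (-0.80 ± 0.45, adjusted p = 0.497), and cdc23.S read 719.9 and 586.9 against 325.5 and 475.9 (-0.70 ± 0.44). cdc23.L was at -0.45 and -0.41 in its 2 probe sets, anapc16.L at -0.47 and anapc15.S at -0.40, each below 0 in both females. Both cortex arrays lay below both whole oocyte arrays for 8 of the 13 tested APC/C probe sets, beside 31.8% of all tested probe sets and 26 of the 77 members. anapc10.L, anapc11.L and 1 of 2 probe sets of anapc13.2.L were above 0, at 0.25, 0.08 and 0.21; the other of anapc13.2.L was at -0.56 and anapc7.S at -0.21.

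All 6 tested probe sets named bub or mad2 were below 0 in both females, without a call; 5 of them are of the spindle checkpoint, the system that delays anaphase until chromosomes are attached, and mad2l2.S is a relative of Mad2 with other roles. Over all tested probe sets 47% were below 0 in both females. With quantile normalization or median centring this class also had no call. The signs in each female were not examined on those scalings. mad2l1.S, the checkpoint protein Mad2, read 4736 and 6388 in whole oocytes and 3050 and 3543 in cortices on 1 probe set, and 580.7 and 626.0 against 368.4 and 348.0 on the other. The probe sets gave nearly the same log2 changes, -0.74 ± 0.34 and -0.72 ± 0.42 (adjusted p = 0.419 and 0.504), and in both the arrays did not overlap. bub1b.L, which encodes the checkpoint protein BubR1, was at -0.41 ± 0.32, bub3.L at -0.33 ± 0.36, bub1.L at -0.28 ± 0.40 and mad2l2.S at -0.16 ± 0.51. The sign of mad2l2.S turned without whole oocyte replicate 2 (0.33) and without vegetal cortex replicate 1 (0.40), and that of bub1.L without whole oocyte replicate 1 (0.12). The class median was -0.37.

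The lowest values of all members were those of aurka, the kinase Aurora A, which acts at spindle poles. aurka.L read 9097 and 10964 in whole oocytes and 5057 and 3315 in cortices, a signal 2.43-fold higher in the whole oocyte. The log2 change was -1.28 ± 0.34 (95% interval -2.07 to -0.50, unadjusted p = 0.00543, adjusted p = 0.118 by limma). aurka.S read 7535 and 6474 in whole oocytes and 3818 and 1335 in cortices, 3.07-fold higher in the whole oocyte (log2 change -1.62 ± 0.49, 95% interval -2.75 to -0.49, unadjusted p = 0.0107, adjusted p = 0.183). For each copy both cortex arrays lay below both whole oocyte arrays. Only 0.613% of all tested probe sets had a lower log2 change than aurka.S, and 1.42% a lower one than aurka.L. Neither copy was called with the female as a block (adjusted p = 0.103 for aurka.S and 0.117 for aurka.L). Without vegetal cortex replicate 1 both were called lower (-2.37 and -1.59), where 7.24% of all tested probe sets were, and without vegetal cortex replicate 2 neither was (-0.87 and -0.98).

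Aurora B and Polo-like kinase 1 had values nearer to 0; their difference from aurka was not tested. aurkb.L, the kinase of the chromosomal passenger complex, read 12620 and 12363 against 9435 and 8114 (-0.51 ± 0.29), and aurkb.S was at -0.16 ± 0.38. plk1.S, which activates Cdc25 and the APC/C, had 3 probe sets, at 0.02 ± 0.25, -0.11 ± 0.31 and -0.18 ± 0.28. The brightest of these read 23340 and 21153 in whole oocytes and 22812 and 22288 in cortices. Its sign turned with quantile normalization (-0.51).

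**Figure D2:**
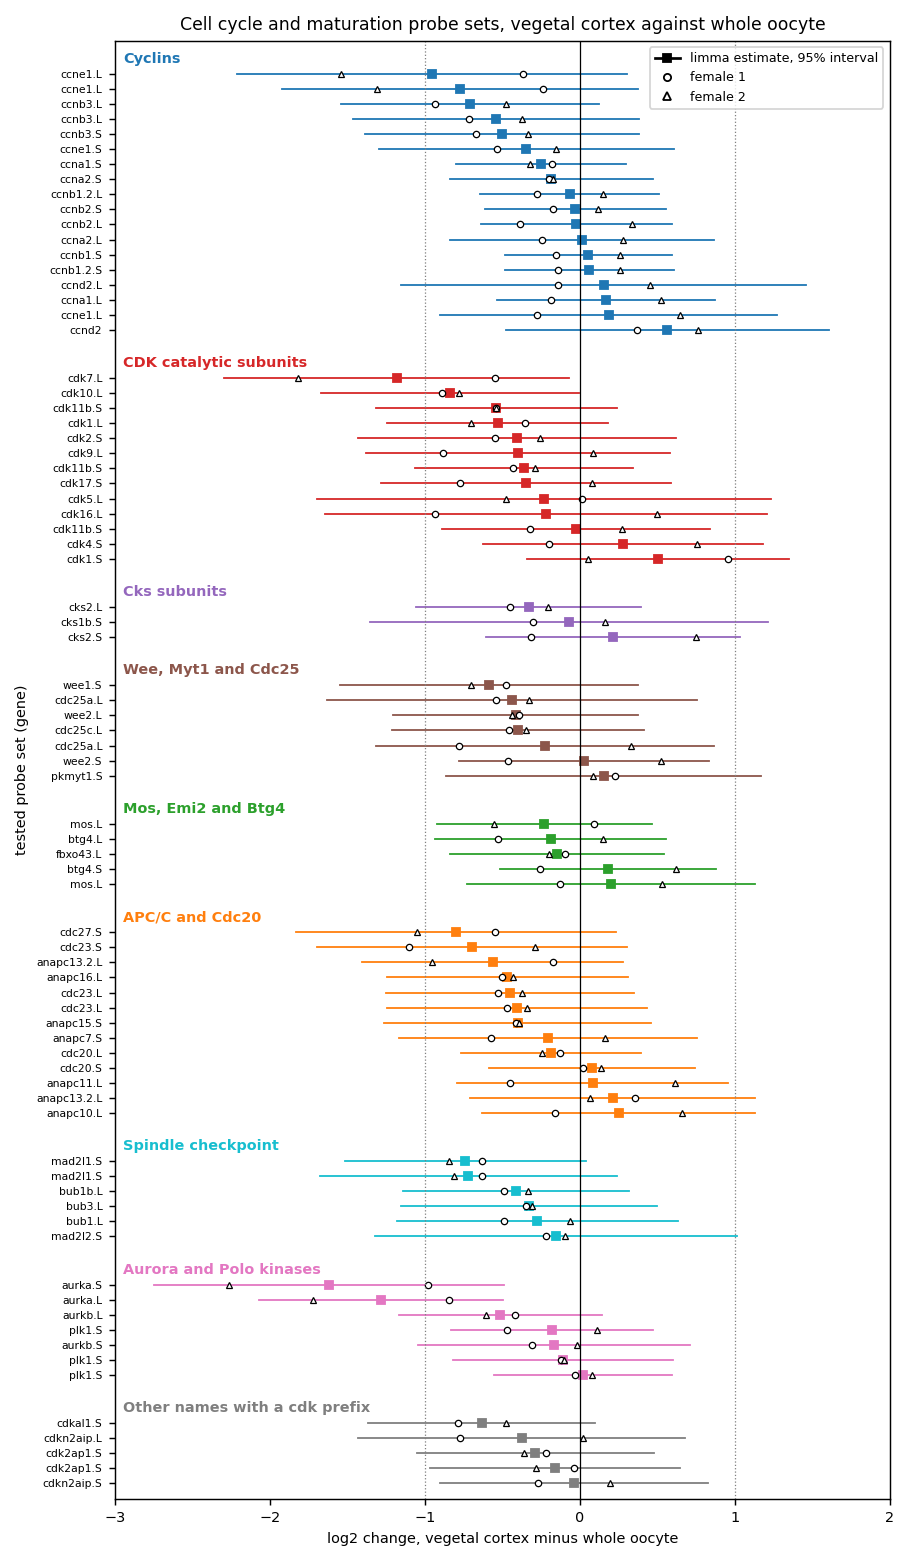
Log2 change (vegetal cortex minus whole oocyte) of the 77 tested probe sets by role; squares are limma estimates with 95% intervals, circles the change in female 1 and triangles in female 2, and dotted lines mark a 2-fold change. All but 4 intervals include 0, the exceptions being aurka.S, aurka.L, cdk7.L and cdk10.L.

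The remaining names share the cdk stem without being cyclin-dependent kinases. cdkal1.S, a tRNA-modifying enzyme gene, read 6014 and 5471 against 3472 and 3922 (-0.63 ± 0.32, adjusted p = 0.464), with both cortex arrays below. cdk2ap1.S, a Cdk2-associated protein gene, lay at -0.16 and -0.29 in its 2 probe sets, and cdkn2aip.L and cdkn2aip.S at -0.38 and -0.04. The activator gene cdk5r1l.S was too dim to test, with signals between 9.4 and 137. In all, 10 member probe sets were too dim, with mean signals of 4.2 to 255.5 against the limit of 271.5.

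On the deposited scaling the females did not give the same picture. In female 1, 70 of the 77 members (90.9%) were lower in the cortex, beside 68.7% of all tested probe sets. In female 2, 44 members (57.1%) were, beside 57.5% of all. The members' median log2 change was -0.38 in female 1 and -0.17 in female 2, where all tested probe sets had -0.27 and -0.12. Below 0 in both females were 42 members (54.6%, beside 47%), and above 0 in both were 5 (6.49%, beside 20.8%): ccnd2, cdk1.S, pkmyt1.S, cdc20.S and 1 probe set of anapc13.2.L. Both cortex arrays lay above both whole oocyte arrays for only 3 members, beside 14.7% of all tested probe sets. Members share their arrays and samples, so these counts describe 2 dissections and are not independent evidence gene by gene. The counts by female were not repeated on another scaling. With quantile normalization the members' median log2 change over the 4 arrays was -0.42, beside -0.16 for all tested probe sets. How far the contrast between the females depends on the scaling was not tested.

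**Figure D3:**
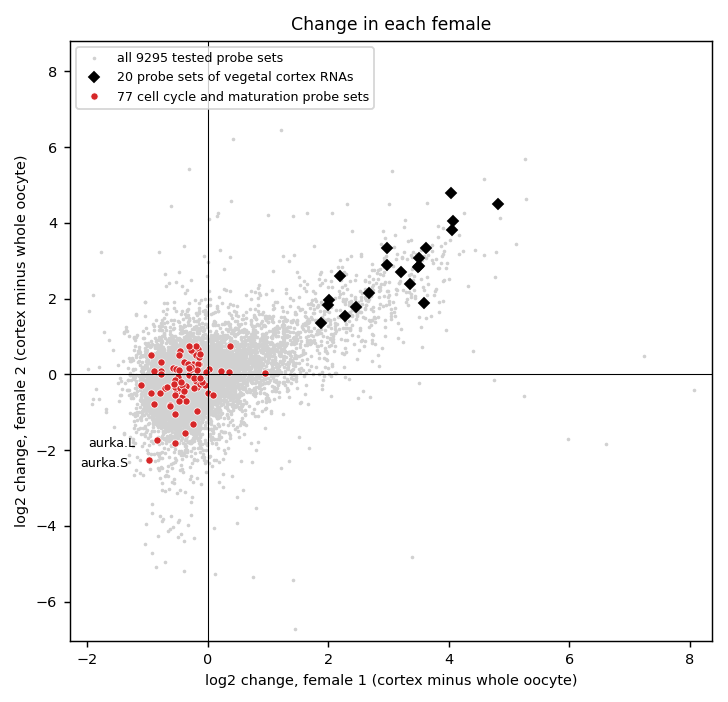
Log2 change (vegetal cortex minus whole oocyte) in female 1 (x axis) and female 2 (y axis) for all 9295 tested probe sets (grey), the 77 cell cycle and maturation probe sets (red) and 20 probe sets of RNAs known from the vegetal cortex (black diamonds). On the deposited scaling, 70 of the 77 red points lie below 0 in female 1 and 44 in female 2. The points of aurka.L and aurka.S are at the lower left, and no red point lies among the diamonds.

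Differences between the females were themselves examined, in a model of group and replicate number. No member was called (0 of 77, where 0% of all tested probe sets were; at an unadjusted p under 0.05, 10 of 77 members, 13%, beside 14.2% of all). The clearest cases, chosen after their values were seen, had the same direction of difference in both kinds of sample. cdk5.L, a kinase best known from neurons, read 981.2 and 990.0 in the whole oocytes and cortices of female 1, and 427.4 and 301.0 in those of female 2 (2.66-fold higher in female 1, adjusted p = 0.343 by limma). mad2l2.S, which encodes an APC/C inhibitor and DNA polymerase subunit, read 957.5 and 820.3 in female 1 and 1905 and 1785 in female 2 (2.06-fold higher in female 2, adjusted p = 0.343). ccne1.S and cdk2.S had signals 1.82-fold and 1.86-fold higher in female 2. The brighter probe sets of ccne1.L had signals 2.11-fold and 1.91-fold higher in female 1. None of these passed (adjusted p = 0.343 or 0.344 by limma). For these ccne1.L probe sets the log2 difference (female 2 minus female 1) was -0.49 and -0.40 in whole oocytes. In cortices it was -1.66 and -1.47. The dimmer probe set of ccne1.L had -0.02 in whole oocytes and 0.90 in cortices. Of the 77 members 52 (67.5%) had the same sign of difference between females in whole oocytes and in cortices, beside 64.2% of all tested probe sets. Female, dissection and array cannot be told apart in this design.

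**Figure D4:**
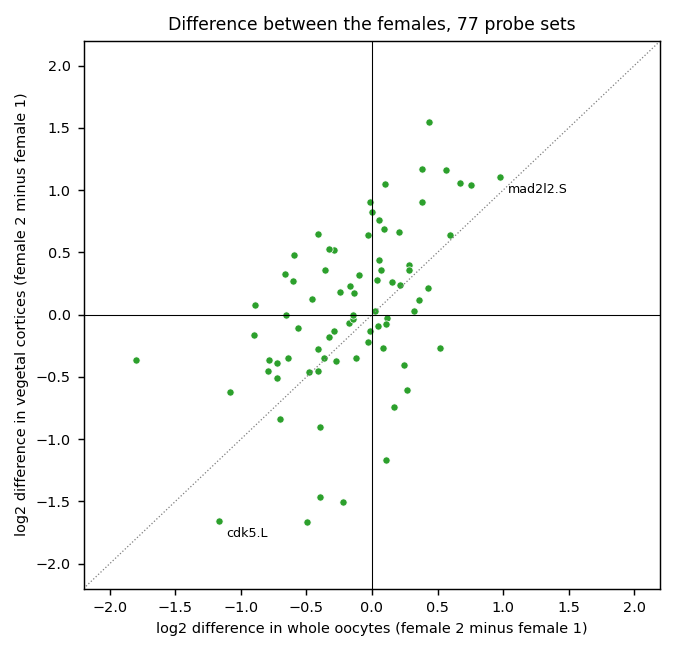
Log2 difference between the females (female 2 minus female 1) in whole oocytes (x axis) and in vegetal cortices (y axis) for the 77 tested probe sets; the dotted line marks equal differences. cdk5.L lies low on both axes and mad2l2.S high on both.

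Both subgenome copies of 15 member genes could be tested, and no pair passed limma's adjusted test of the difference between the copies' log2 changes (0 of 15, where 0.943% of all 636 pairs were called). At an unadjusted p under 0.05 it was 1 of 15, cdk1, where 9.28% of all pairs were. The .L copy of cdk1 lay 1.03 ± 0.36 below the .S copy on the log2 scale (95% interval -1.85 to -0.21, adjusted p = 0.364), by 1.31 in female 1 and by 0.75 in female 2. It was called without vegetal cortex replicate 2, where 6.45% of all pairs were. The next in size were cks2 (-0.55 ± 0.36), wee2 (-0.44 ± 0.39) and ccne1 (-0.43 ± 0.76), and ccne1 was called without vegetal cortex replicate 1, where 11% of all pairs were. In female 1 and female 2 the difference was -0.13 and -0.96 for cks2 and 0.07 and -0.96 for wee2. For ccne1 it was 0.30 and -1.15. For aurka the copies differed by 0.34 ± 0.42, with an interval of -0.64 to 1.31. The median absolute difference was 0.34 over the 15 pairs and 0.32 over all. Homeologs are alike in sequence, and how far a probe set for one copy also binds the other was not tested.

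**Figure D5:**
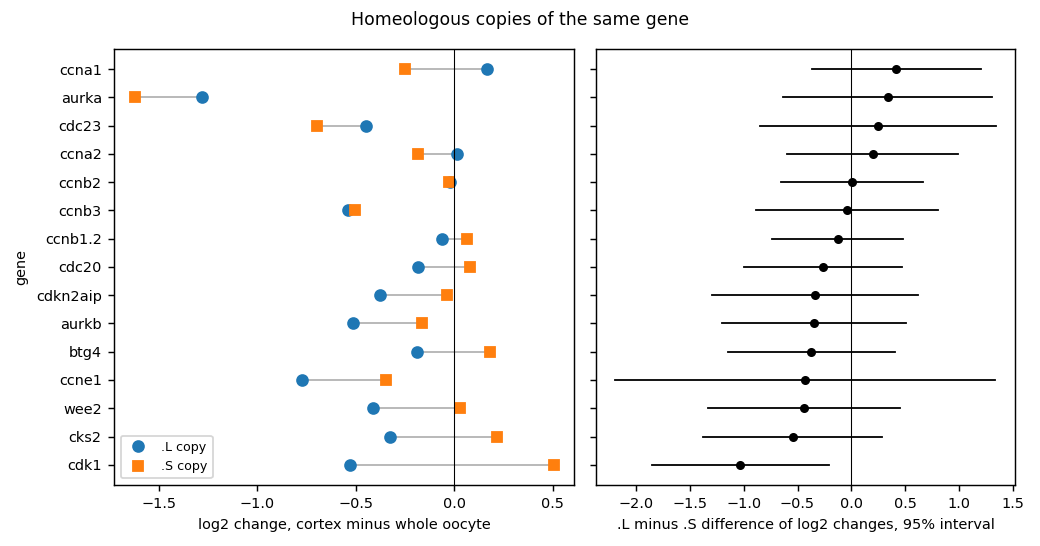
Left, log2 change (vegetal cortex minus whole oocyte) of the .L copy (circles) and .S copy (squares) of 15 genes; right, the difference between the copies with its 95% interval. The interval of cdk1 lies below 0, and all others include 0.

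Lists of other genes of the same pathways, outside the name rule, are to be read beside the 3.31% of all tested probe sets that were called higher. The list called APC/C and SCF partners here holds partners and targets of those ubiquitin ligases. It also holds the calcium signalling genes camk2g.S, ppp3ca.S and chp1.L. Of its 42 tested probe sets 15 rose and 0 fell. Of these 13 measure camk2g.S, a subunit of the calcium-dependent kinase CaMKII, where 20 probe sets of that 1 gene were tested and the called ones rose 5.16-fold to 13.8-fold. Without camk2g.S 2 of 22 rose, both of btrc.S. btrc encodes beta-TrCP, the F-box protein with which SCF marks phosphorylated proteins, among them Emi2 in frog eggs, for destruction. Its brighter probe set read 3829 and 2308 in whole oocytes and 11000 and 13696 in cortices, a 4.11-fold increase (log2 change 2.04 ± 0.36, adjusted p = 0.0199 by limma). The second read 1349 and 1142 against 6432 and 5722, a 4.83-fold increase (2.27 ± 0.34, adjusted p = 0.00954). In both the cortex arrays stood well clear of the whole oocyte arrays. Another, dim probe set of btrc.S was at 0.87 ± 0.48 and was not called, and both calls were lost against a 2-fold bound and without whole oocyte replicate 1 (2.40 and 2.39) or without whole oocyte replicate 2 (1.68 and 2.15).

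In the list of Greatwall, its substrates and protein phosphatases 1 of 20 tested probe sets rose and 0 fell, a share near that of all tested probe sets. ppp1cb.L, a catalytic subunit of protein phosphatase 1, read 2110 and 1540 in whole oocytes and 7193 and 5138 in cortices, a 3.35-fold increase (1.74 ± 0.36, adjusted p = 0.0414). It was no longer called with no filter (adjusted p = 0.0782), without the intensity trend (adjusted p = 0.0678), against a 2-fold bound, without whole oocyte replicate 1 (1.97) or without whole oocyte replicate 2 (1.52). A second probe set of ppp1cb.L was too dim to test, at 164.8 and 180.3 in whole oocytes and 264.6 and 122.2 in cortices. Its direction differed between the females. The lowest of that list was ppp2r2d.S at -1.27 ± 0.52, a B55 subunit of phosphatase 2A. Both copies of arpp19, whose protein inhibits that phosphatase once Greatwall has phosphorylated it, lay below 0 in both females, at -1.24 ± 0.38 for arpp19.S and -0.88 ± 0.36 for arpp19.L (adjusted p = 0.199 and 0.372). mastl.L, the Greatwall kinase itself, was at -0.24 ± 0.34. ppp1cc.S of the same list was above 0 in both females, at 0.91 ± 0.31 (adjusted p = 0.255 by limma). The other copy, ppp1cc.L, was at -0.38 ± 0.46 and -0.25 ± 0.34 on its tested probe sets. Of the list's tested probe sets 75% were below 0, beside 65.7% of all tested probe sets.

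Among 21 tested probe sets of kinetochore and chromosomal passenger genes and other Polo-like kinases, 1 rose and 0 fell, again a share near that of all. plk3.L, a Polo-like kinase linked to stress responses, read 267.3 and 390.1 in whole oocytes and 3255 and 1140.5 in cortices (2.51 ± 0.54, adjusted p = 0.0486). The call was lost with the female as a block (adjusted p = 0.0754), with an offset at the 25th percentile (0.0535 adjusted), with no filter (0.115) or one at the 60th percentile (0.0934), without the trend (0.0618), against a 2-fold bound (0.443) and without either whole oocyte array (2.25 without replicate 1 and 2.77 without replicate 2). plk2.S had the lowest value of that list, -1.81 ± 0.54. Of 5 tested probe sets of the MAP kinase branch below Mos, 0 passed in either direction, from map2k1.L at -0.86 ± 0.56 to rps6ka3.L at 0.09 ± 0.47. Of 8 tested probe sets for hormone response and protein kinase A, the kinase that holds the oocyte in prophase, 0 passed. Their median was 0.57, but several of the 8 measure 1 gene, prkar1a (0.39 to 0.84). prkacb.S was highest at 1.03 ± 0.37 (adjusted p = 0.307 by limma) and spdyc.L lowest at -0.47 ± 0.32. The other copy, spdyc.S, was at 0.38 ± 0.39. paqr6.L, paqr8.L, adcy9.L and prkaca.S were too dim to test.

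The DNA replication genes, another set of messages stored for cleavage, gave the nearest comparison. Of their 50 tested probe sets 0 rose and 0 fell, with a median log2 change of -0.44 and a range of -1.17 to 0.80, where the cell cycle and maturation genes had a median of -0.23 and a range of -1.62 to 0.57. Both lists were mostly below 0, in 84% and 75.3% of probe sets, beside 65.7% of all tested probe sets. The lowest and highest replication values, -1.17 and 0.80, came from 1 gene, rfc3.L, whose probe sets pointed in opposite directions. Whether the lists differ was not tested.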

How the data were processed

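RNA of 4 samples (2 whole oocyte, 2 vegetal cortex) was measured on 1-colour arrays after 2 cycles of cDNA amplification, per the labels' protocols. The deposited values are linear signal intensities, 1 per probe set, made by the authors with MAS5 per the submitters' processing notes; its version and settings are not given. The trimmed mean (2% off each end) was 1500.1 or 1500.2 on each array, so only shares of the hybridized RNA can be compared, not amounts. Detection calls were not used. The number of arrays limits the precision, and dim probe sets have wider intervals.

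Of 15611 probe sets 120 are controls and were left out. Symbols came from the platform annotation (1 symbol for 9304 probe sets, several for 195, none for 5992); 86 of the 87 members had a gene identifier in the annotation of Xenopus_laevis_v10.1 and no symbol was updated. A further 2 probe sets with several symbols held a name meeting the rule and were not used. ccnb1.2 and anapc13.2 were placed with the cyclins and the APC/C. An offset of 19.11 (10th percentile) was added before log2, and where the mean over the 4 arrays reached 271.5 (40th percentile) limma 3.58.1 in R 4.3.3 was run (lmFit, then eBayes with its trend option; residual degrees of freedom 2, prior 6.218), checked on simulated data. Intensity differences between homeologs and between females were fitted likewise.

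Replicate numbers pair the samples, since the labels give the same female for each number (correlation of deviations from the group means 0.35); the fit without the block is the one reported. For vegetal cortex replicate 2 the title and the description disagree on the number, and the title was followed. The pairing of that array, and so the results by female, rest on its title. Named were members called in any fit and a list of well-known genes. Also named were members with the largest smaller change of both females (10 down, and the 5 that were above 0 in both). Of lists outside the rule, called genes were named, else the highest and lowest. Some further genes, members and others, were named outside these rules. Members and lists were chosen with earlier results of these data known. No sequences were used.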

Additional observations from a re-analysis of the deposited data

How the results depend on the processing

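Over the alternatives run, no member was called higher, and members were called lower only without a vegetal cortex array: between 0 and 5 members over the fits that leave out an array, where between 0 and 673 of all tested probe sets were called lower and between 125 and 697 higher. With 1 array left in a group its spread is assumed to equal that of the other group. With the female as a block (replicate block), 0 members and 355 probe sets in all were called higher and none lower; the block changed no call among the members, and of the genes named outside them it changed that of plk3.L. A test against a 2-fold bound called 81 probe sets higher, and quantile normalization called 1 lower; the causes were not tested.

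Intervals within a 2-fold change were found for 9 members with quantile normalization and for 4 to 25 over the fits without an array; a 2-fold decrease was excluded for 18 and for 9 to 36, and a 2-fold increase for 42 to 70 without an array. Of the 15 homeolog pairs among the members 0 or 1 were called without an array, and of all 636 pairs 0 to 70.

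Leaving out an array turned the sign of 38 of the 77 members, with log2 changes of up to 0.40 in size; of these cdc25a.L was called in one fit. The members named by rule follow. Quantile normalization gave -0.20 for cdc20.S, -0.57 for ccnb1.2.S, -0.05 for wee2.S, -0.51 for plk1.S, -0.22 for btg4.S, -0.62 for ccnb1.S and -0.46 for ccna1.L. Centring on the median gave 0.059 for cks1b.S, 0.065 for ccnb1.2.L, 0.10 for ccnb2.S and 0.11 for ccnb2.L. Without 1 array in turn, the log2 change ran from -0.51 to 0.13 for btg4.L, from -0.11 to 0.54 for cks2.S, from -0.12 to 0.28 for cdc20.S, from -0.055 to 0.18 for ccnb1.2.S and from -0.61 to 0.47 for cks1b.S. It ran from -0.27 to 0.57 for pkmyt1.S, from -0.34 to 0.041 for fbxo43.L, from -0.48 to 0.15 for aurkb.S, from -0.30 to 0.36 for wee2.S and from -0.93 to 0.12 for cdk2.S. It ran from -0.19 to 0.056 for ccnb1.2.L, from -0.05 to 0.092 for plk1.S, from -0.87 to 0.18 for ccne1.S, from -0.12 to 0.48 for btg4.S and from -0.11 to 0.21 for ccnb1.S. It ran from -0.21 to 0.55 for ccna1.L, from -0.21 to 0.15 for ccnb2.S, from -0.20 to 0.16 for ccnb2.L, from -0.998 to 0.54 for cdc25a.L and from -0.67 to 0.12 for bub1.L.

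For the lists outside the name rule these alternatives were added after seeing the data. The higher count of the Greatwall and phosphatase list was 0 with no filter, without the intensity trend and with the 2-fold bound. The APC/C and SCF partners are counted in this paragraph without camk2g.S, and their higher count was 0 with the 2-fold bound. The higher count of the kinetochore and Polo list was 0 with an offset at the 25th percentile, no filter, a filter at the 60th percentile, no trend, the replicate block and the 2-fold bound. Without an array, higher counts ran from 0 to 1 (Greatwall), 0 to 2 (APC/C and SCF partners), 0 to 1 (kinetochore) and 0 to 3 (hormone and protein kinase A). Lower counts ran from 0 to 4 (Greatwall), 0 to 5 (DNA replication), and 0 to 1 for the MAP kinase, hormone, APC/C partner and kinetochore lists. Dim probe sets and 2 arrays a group limit all of these.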
